A study of Mus musculus with 9 samples.

Results

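The comparison described here sets construct 7, a small interfering RNA (siRNA) against Ubr4, beside a non-targeting siRNA in mouse leg muscle. It takes 6 of the 9 libraries of the series, the 3 of construct 7 and the 3 of the non-targeting control, and 10794 of the 23231 genes in the deposited table, those with a mean of at least 1 FPKM over all 9 libraries. FPKM counts fragments per kilobase of transcript, scaled to the depth of the library. All libraries came from the tibialis anterior, a fast muscle of the shin, of C57BL/6 mice aged 6 months. In the control group the muscle had received a non-targeting siRNA by electroporation, and in the other group siRNA construct 7 targeting UBR4 by the same route. The remaining 3 libraries had received a second siRNA against the same gene, construct 5, and are compared with construct 7 directly. They also enter the filter on low values and the spread shared by all tests. No genetic modification of the mice is labelled, so the groups share the strain, the age and the electroporation and differ in the siRNA. Electroporation delivers siRNA to the cells it reaches, and RNA was taken from the tissue, so treated and untreated cells of every type in the muscle enter 1 value, and fewer cells of a type cannot be told apart from less RNA per cell. The labels do not say that the samples came from separate animals, and the p-values measure the spread between samples, which may be technical.

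Ubr4 encodes one of the largest E3 ubiquitin ligases of the cell. Together with UBR1 and UBR2 it belongs to the proteins with a UBR box, which bind destabilising residues at the N-terminus of proteins (N-degrons) and mark them for the proteasome. UBR4 works with the partners KCMF1 and calmodulin, and in muscle the ubiquitin system sets much of the balance between protein synthesis and breakdown. The comparison asks how other transcripts of the muscle differ after this siRNA against Ubr4. Lowered Ubr4 and any other effect of the siRNA cannot be told apart in this design.

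Depths recovered from the steps of low FPKM values were 29231597 to 32228469 reads in the controls and 31818574 to 42933405 reads with construct 7. At the depths of the 9 libraries, 3 reads on a transcript of 1 kilobase are worth 0.0659 to 0.103 FPKM, and that limit takes in counting error alone. Libraries of the control group correlated with each other at 0.991 to 0.993 and those of construct 7 at 0.985 to 0.990 (Pearson's r over genes, which are not independent replicates). On the first principal component, with 39.8% of the variance, construct 7 replicates 1, 2 and 3 had scores of -14.3, 2.26 and -9.94, so replicate 2 stood away from replicates 1 and 3. On the second, with 16.35%, replicate 1 stood apart, at -12.2 against 7.89 and 9.08. Muscle identity was as labelled: the 10 muscle fibre marker genes summed to 58770 to 61830 FPKM in the controls and 50860 to 59730 FPKM with construct 7. Creatine kinase Ckm alone stood at 13550 ± 1160 FPKM (SD, n = 3) in the controls and 12766 ± 1810 FPKM (SD, n = 3) with construct 7.

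The targeted gene was lower in every library that had received construct 7. Ubr4 (ENSMUSG00000066036) stood at 7.82, 10.3 and 9.09 FPKM in the 3 controls and at 2.25, 2.58 and 3.07 FPKM with construct 7. The groups did not overlap, and the mean with construct 7 was 29.1% of the control mean. In recovered reads the lowest control library held 4115 Ubr4 reads and the construct 7 libraries 1287, 1783 and 2370. In limma the log2 change was -1.47 (SE 0.129, adjusted p = 0.00882 after Benjamini-Hochberg), here as throughout on the log2(FPKM + 1) scale, which understates the change of low genes. An exact permutation test (two-sided) returned p = 0.1, and 3 libraries against 3 can give no smaller value. Alternatives gave adjusted p-values from 0.00468 to 0.0976, and 4 of them missed the threshold: leaving out control replicate 2 (0.0598) or 3 (0.0877), leaving out construct 7 replicate 2 (0.0736), and testing unfiltered genes (0.0976).

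Beside Ubr4, 5 genes fell with construct 7 and none was called higher. At an adjusted p under 0.05 in limma, 6 of 10794 genes passed, or 0.0556% of the genes tested, and all 6 were lower. Spermine oxidase, the cytoplasmic dynein heavy chain, a GTPase-activating protein, poly(ADP-ribose) polymerase 1 and a histone H2A.Z chaperone joined the target. voom on recovered reads called the same 6 genes. At an unadjusted p under 0.05, 1022 genes (9.47%) passed, 630 of them higher (5.84%) and the rest lower (3.63%). The number of calls depended on single libraries. Without control replicate 1 it held 1 gene, without control replicates 2 or 3 or construct 7 replicate 2 it held 0, and without construct 5 replicate 1 it held 1, the libraries of construct 5 entering only through the shared estimate of spread. Leaving out construct 5 replicate 2 or 3 left 2 genes, as did fitting the 6 libraries of the comparison alone. The direction of the 6 genes was the same in each alternative run. Of 21 alternatives, Ubr4 was called in 17, Smox in 13, Dync1h1 in 11, Arhgap10 in 10, Parp1 in 9 and Anp32e in 7. In the 9 fits that left out 1 library, Parp1 and Anp32e each lost the call in 9. Arhgap10 lost it in 8, Dync1h1 in 7, Smox in 6 and Ubr4 in 3. With no filter on low values none of the 6 passed, and with the replicate number as a block Dync1h1 (adjusted p = 0.0646) and Parp1 (adjusted p = 0.127) did not.

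**Figure D1:**
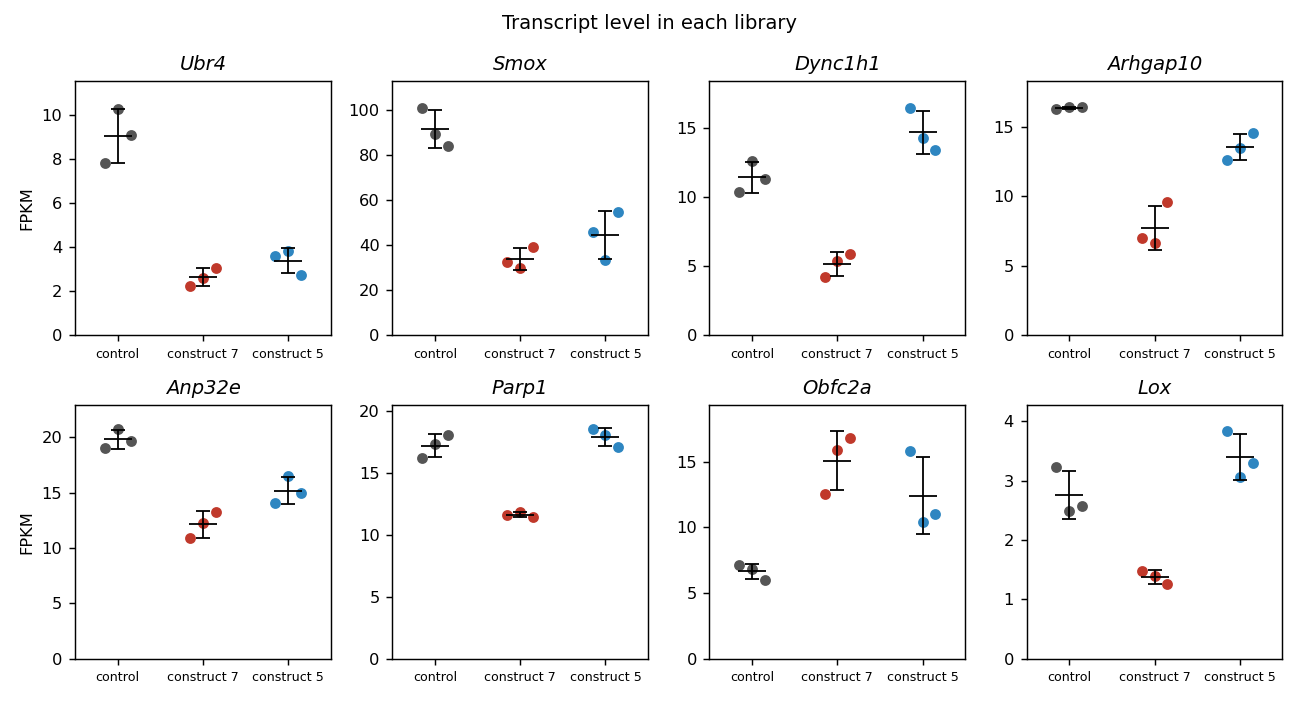
Level in FPKM of the 6 called genes, and of Obfc2a and Lox, in each library of the control, construct 7 and construct 5 groups (points), with the group mean and SD (horizontal mark and bars). For each of the 6 called genes the 3 construct 7 libraries lie below all 3 controls; for Dync1h1 and Parp1 the construct 5 libraries do not lie below the controls as a group.

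Smox encodes spermine oxidase, which converts spermine to spermidine, and was by level the most abundant of the 6. It stood at 100.8, 89.4 and 84.0 FPKM in the controls and at 32.3, 30.0 and 39.1 FPKM with construct 7. The groups did not overlap, and the mean with construct 7 was 37.0% of the control mean. limma gave -1.41 (SE 0.166, adjusted p = 0.0277). With construct 5 the libraries read 45.6, 33.5 and 54.5 FPKM, and the difference between the constructs was -0.37 (SE 0.166, adjusted p = 0.221).

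Dync1h1 encodes the heavy chain of cytoplasmic dynein 1, the motor that carries cargo toward the minus end of microtubules. It read 10.4, 12.6 and 11.3 FPKM in the controls and 4.23, 5.36 and 5.89 FPKM with construct 7, or 45.1% of the control mean. limma gave -1.02 (SE 0.118, adjusted p = 0.0277). The construct 5 libraries stood at 16.4, 14.3 and 13.4 FPKM, all above the highest control. Construct 7 was lower than construct 5 by a log2 difference of -1.36 (SE 0.118, adjusted p = 0.00416), a difference called in 20 of 20 alternatives. Of the 2 siRNAs against Ubr4, construct 7 alone had libraries below the controls in this gene.

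Arhgap10 encodes a GTPase-activating protein, which switches off small GTPases. The controls were tightly grouped at 16.3, 16.4 and 16.4 FPKM, and the construct 7 libraries lay at 7.03, 6.66 and 9.57 FPKM. The mean with construct 7 was 47.3% of the control mean, and limma gave -1.005 (SE 0.114, adjusted p = 0.0277). With construct 5 the libraries lay in between, at 12.7, 13.5 and 14.6 FPKM, and the difference between the constructs was -0.75 (SE 0.114, adjusted p = 0.0256). That difference was not called with median-ratio scaling (adjusted p = 0.0605).

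Anp32e encodes the chaperone that removes the histone variant H2A.Z from chromatin. It read 19.0, 20.7 and 19.7 FPKM in the controls and 10.9, 12.3 and 13.2 FPKM with construct 7, or 61.2% of the control mean. limma gave -0.67 (SE 0.087, adjusted p = 0.0428), the weakest of the 6 calls. It was lost in each of the 9 fits that left out 1 library, with no filter, with the 6 libraries alone and with median-ratio or quantile scaling. The construct 5 libraries stood at 14.04, 16.50 and 14.97 FPKM, and the constructs differed by -0.30 (SE 0.087, adjusted p = 0.101).

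Parp1 encodes poly(ADP-ribose) polymerase 1, which binds DNA breaks and builds poly(ADP-ribose) chains. It stood at 16.2, 17.4 and 18.0 FPKM in the controls and at 11.6, 11.8 and 11.4 FPKM with construct 7, or 67.5% of the control mean. The change was small but even across libraries, and limma gave -0.53 (SE 0.065, adjusted p = 0.0327). The call against control was lost in each of the 9 fits that left out 1 library. With construct 5 the libraries read 18.5, 18.1 and 17.1 FPKM. Construct 7 was lower than construct 5 by -0.58 (SE 0.065, adjusted p = 0.0119). That difference was called in 18 of 20 alternatives, and not without construct 7 replicate 1 or replicate 3. Of the 6 called genes, Dync1h1, Arhgap10 and Parp1 thus differed between the siRNAs in the main fit, while for Ubr4, Smox and Anp32e the test of the difference did not pass. Of these differences, that of Dync1h1 was called in every alternative and that of Arhgap10 in 13 of 20.

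**Figure D2:**
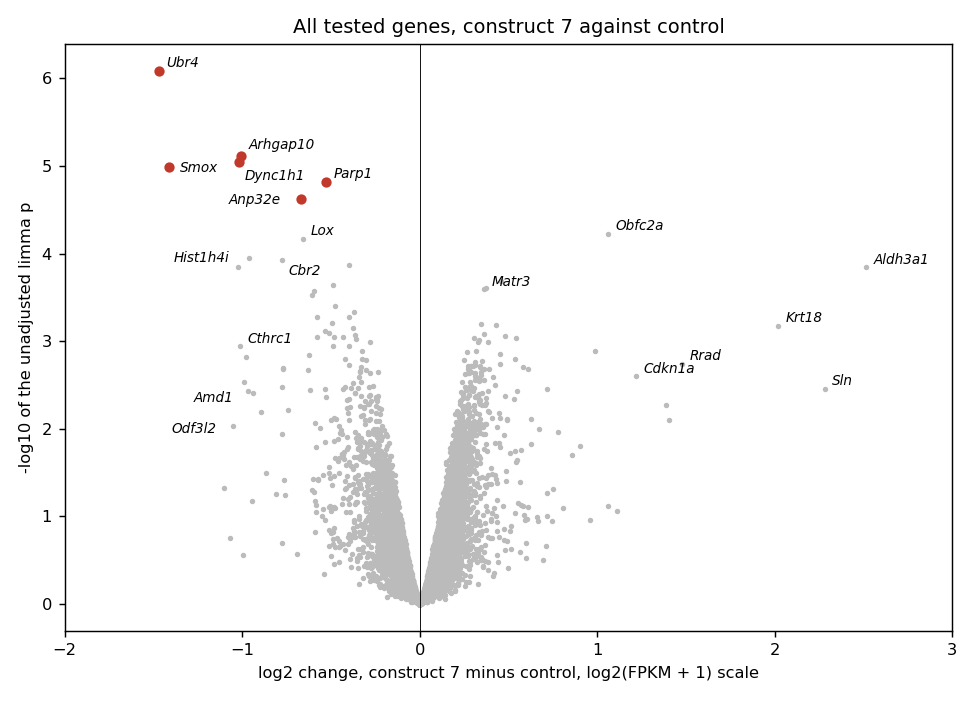
Each point is 1 of the 10794 tested genes, placed by its log2 change with construct 7 against control (x axis) and by -log10 of its unadjusted limma p (y axis); called genes are red. The 6 red points all lie to the left of 0, and the genes with the largest positive values, such as Aldh3a1 at 2.52 and Sln at 2.28, are not called.

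Among the proteins that recognise N-degrons and their helpers, Ubr4 was the only called member of 22 tested. The list had a median log2 change of 0.04, against 0.02 over all genes tested. The related ligases were not called: Ubr1 stood at 3.98 ± 0.437 FPKM in the controls and 4.41 ± 0.464 FPKM with construct 7, and Ubr2 at 12.1 ± 1.37 and 13.5 ± 1.80 FPKM (SD, n = 3). Kcmf1, the partner that UBR4 binds, read 51.2 ± 1.49 FPKM in the controls and 52.1 ± 5.93 FPKM with construct 7 (SD, n = 3). Ate1, which adds arginine to N-termini and so makes N-degrons, was at 6.29, 7.48 and 7.92 FPKM in the controls and 9.45, 8.10 and 9.30 FPKM with construct 7, without overlap (log2 change 0.28, limma adjusted p = 0.421). The calmodulin gene Calm3 had a log2 change of -0.38 (adjusted p = 0.45), with overlapping groups. Calmodulin genes encode the same protein, but their transcripts differ.

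Polyamine metabolism was examined because of Smox. Polyamines (putrescine, spermidine and spermine) are small cations made from ornithine and decarboxylated S-adenosylmethionine, and they bind nucleic acids. Of 18 tested members, 1 was called (Smox), 3 were lower and 1 higher at an unadjusted p under 0.05, where 3.63% of all genes were lower and 5.84% higher. The summed level of the list was 794.0 to 836.6 FPKM in the controls and 634.8 to 674.3 FPKM with construct 7, and most of that gap lay in Amd1 and Smox. Amd1, the decarboxylase that supplies the aminopropyl group, read 173, 148 and 206 FPKM in the controls and 122, 68.1 and 83.8 FPKM with construct 7. The groups did not overlap, and the mean was 52.0% of the control mean, but limma gave an adjusted p = 0.305 (log2 change -0.97). Its near-identical copy Amd2 stood at 60.9, 54.7 and 75.5 against 44.4, 24.2 and 31.8 FPKM (-0.94, adjusted p = 0.308). Reads of the copies may have been split between them, so neither value stands on its own.

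Atp13a3, a polyamine transporter, was the polyamine gene with the largest positive value. It read 2.46, 3.51 and 4.05 FPKM in the controls and 4.42, 5.66 and 5.85 FPKM with construct 7 (log2 change 0.55, adjusted p = 0.305). Dohh, which completes the spermidine-derived hypusine of the translation factor eIF5A, was at 11.99, 12.05 and 12.53 against 11.4, 10.2 and 10.6 FPKM (-0.17, adjusted p = 0.477). The enzymes at the start and middle of the pathway overlapped between groups. Ornithine decarboxylase Odc1 ranged from 31.4 to 41.2 FPKM in the controls and from 27.1 to 38.4 FPKM with construct 7. Spermidine synthase Srm, spermine synthase Sms, the acetyltransferase Sat1 and the peroxisomal oxidase Paox overlapped as well.

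**Figure D3:**
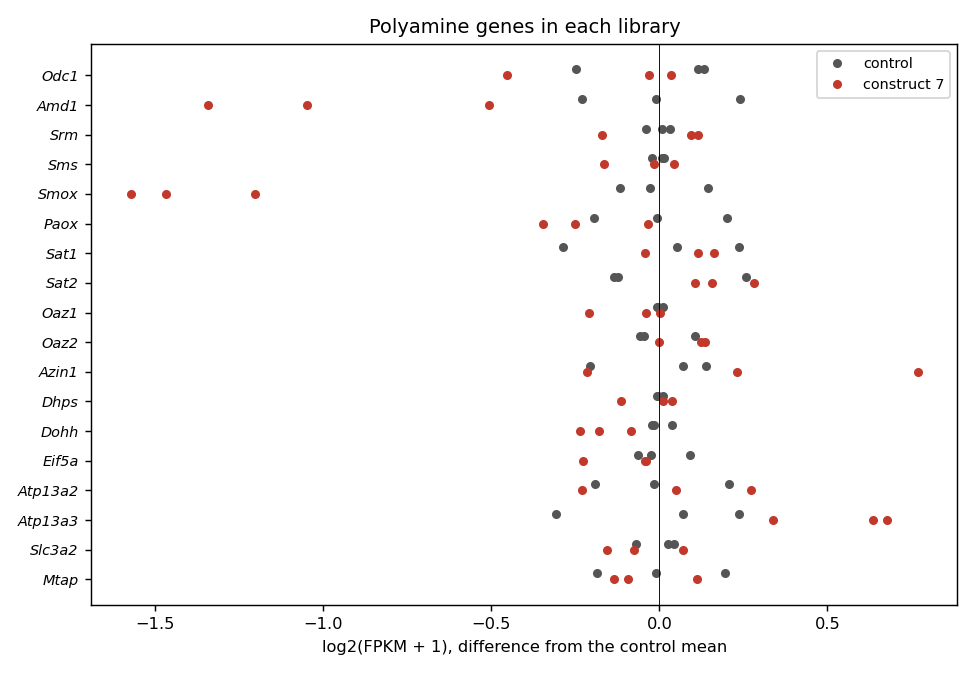
Difference of each control (grey) and construct 7 (red) library from the control mean on the log2(FPKM + 1) scale, for the 18 tested polyamine genes. Smox and Amd1 have all construct 7 points left of the controls, Atp13a3 has them right of the controls, and most other genes overlap around 0.

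The dynein motor works as a complex of heavy, intermediate and light chains with dynactin and cargo adaptors. Of 28 tested dynein, dynactin and adaptor genes, 22 had values above 0, where 57.0% of all genes did, and the median was 0.06. With median-ratio scaling or quantile normalization 19 were above 0. Leaving out single libraries gave from 18, without construct 7 replicate 1, to 23. Dync1h1 was the 1 called member. The light chain Dynlt3 was at 16.4, 16.2 and 15.3 FPKM in the controls and 19.6, 18.7 and 20.3 FPKM with construct 7, without overlap (0.27, adjusted p = 0.278). The cargo adaptor Hook3 read 5.50, 7.33 and 8.08 against 9.64, 9.19 and 9.12 FPKM (0.39, adjusted p = 0.334), and the light intermediate chain Dync1li2 had a log2 change of 0.15 (adjusted p = 0.504). Dynactin's large subunit Dctn1 stood at 20.2 ± 0.967 FPKM in the controls and 19.3 ± 1.76 FPKM with construct 7 (SD, n = 3).

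Ubr4 and Dync1h1 are both encoded by very long transcripts, so 41 tested genes with long transcripts were read beside them. Ubr4 and Dync1h1 were the 2 called genes among the 41, whose median log2 change was 0.04 (-0.03 without control replicate 1). Titin (Ttn), the longest muscle transcript, stood at 82.2 ± 13.0 FPKM in the controls and 81.0 ± 3.69 FPKM with construct 7 (SD, n = 3). Nebulin (Neb) read 203 ± 37.5 and 214 ± 9.06 FPKM, and the calcium release channel Ryr1 210 ± 32.1 and 204 ± 21.1 FPKM (SD, n = 3).

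Parp1 was likewise the only called gene among 28 tested genes of poly(ADP-ribose) metabolism and strand break repair (median 0.08). Obfc2a, now called Nabp1, which binds single-stranded DNA at breaks, had the smallest p of all genes on the higher side. It stood at 7.13, 6.87 and 6.02 FPKM in the controls and at 12.5, 15.9 and 16.9 FPKM with construct 7, 2.26 times the control mean. limma gave 1.06 (SE 0.154), but its adjusted p = 0.0912 missed the threshold. The construct 5 libraries read 15.8, 10.4 and 11.1 FPKM. Parp2, the closest relative of Parp1, stood at 4.59 ± 0.278 FPKM in the controls and 4.70 ± 0.339 FPKM with construct 7 (SD, n = 3), and the glycohydrolase Parg, which removes the chains, at 3.09 ± 0.184 and 3.16 ± 0.0721 FPKM (SD, n = 3). Tdp2, which frees DNA ends from topoisomerase, had a log2 change of 0.25 (adjusted p = 0.422), and Parp4 one of 0.18 (adjusted p = 0.473).

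Of 19 tested genes of the Anp32 family and H2A.Z exchange, Anp32e alone was called (median 0.04). Its relatives Anp32a and Anp32b stood at 13.0 ± 0.464 and 31.9 ± 0.539 FPKM in the controls and 13.1 ± 0.403 and 30.3 ± 0.911 FPKM with construct 7 (SD, n = 3). H2afz, which encodes H2A.Z, read 18.4 ± 0.791 and 19.0 ± 1.10 FPKM (SD, n = 3). The histone chaperones Rbbp4 and Rbbp7 had log2 changes of 0.31 (adjusted p = 0.278) and 0.17 (adjusted p = 0.476). Hist1h4i, a histone H4 gene, was at 24.97, 19.02 and 22.40 FPKM in the controls and 11.5, 8.82 and 12.4 FPKM with construct 7 (-0.96, adjusted p = 0.1195). Histone H4 genes are near-identical copies, so its level is uncertain.

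On the higher side no gene passed limma's adjusted threshold (0 of 10794, 630 at an unadjusted p under 0.05, and 0 with voom). The genes with the largest values there were low in the controls and uneven with construct 7. Aldh3a1, an aldehyde dehydrogenase induced through the aryl hydrocarbon receptor, stood at 0.0351, 0.430 and 0.842 FPKM in the controls and at 4.19, 4.72 and 16.2 FPKM with construct 7. In recovered reads the controls held 2, 27 and 51 reads and the construct 7 libraries 259, 351 and 1353. The construct 5 libraries read 4.54, 6.44 and 6.53 FPKM. For construct 7 against control limma gave 2.52 (SE 0.410, adjusted p = 0.1195). The gene was called without construct 7 replicate 3, its highest library, and with the replicate number as a block.

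Sarcolipin (Sln), an inhibitor of the calcium pump of the sarcoplasmic reticulum, read 4.24, 14.3 and 11.8 FPKM in the controls and 45.1, 100.2 and 24.3 FPKM with construct 7 (2.28, SE 0.589, adjusted p = 0.304). The groups did not overlap, but the construct 7 libraries spanned from 24.3 to 100.2 FPKM. With construct 5 Sln read 117, 42.7 and 39.6 FPKM. The keratin Krt18 stood at 0.926, 2.08 and 1.70 FPKM in the controls and 3.61, 14.1 and 14.3 FPKM with construct 7 (2.02, adjusted p = 0.259). With construct 5 Krt18 read 5.94, 5.60 and 7.17 FPKM. Its partner Krt8 read 0.491, 1.27 and 0.675 against 1.22, 5.87 and 5.63 FPKM (1.39, adjusted p = 0.324), and in it construct 7 replicate 1 lay within the control range. Keratins 8 and 18 pair as intermediate filaments of simple epithelia.

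Rrad, a small GTPase that restrains calcium channels, stood at 2.69, 5.07 and 3.60 FPKM in the controls and at 6.64, 11.4 and 22.4 FPKM with construct 7 (1.48, adjusted p = 0.278). The cell cycle inhibitor Cdkn1a read 5.43, 6.92 and 6.36 against 8.76, 25.8 and 17.1 FPKM (1.22, adjusted p = 0.286). With construct 5 Rrad read 18.7, 15.5 and 15.2 FPKM and Cdkn1a 20.3, 19.7 and 15.3 FPKM. For Aldh3a1, Sln, Krt18, Rrad and Cdkn1a the limma test between the constructs did not pass (adjusted p from 0.466 to 0.797). In Krt18, Krt8, Rrad and Cdkn1a alike, construct 7 replicate 1 was the lowest of its group. Without that library limma called 5 genes, of which 3 were higher: Krt18, Krt8 and Cdkn1a; Dync1h1 and Ubr4 remained. Among the other large values was the carboxylesterase Ces2c (0.99, adjusted p = 0.278). It held 9, 49 and 17 reads in the controls and 98, 93 and 278 with construct 7. Trdj1 (1.41, adjusted p = 0.356) rested on few reads. Trdj1, a J segment of the T-cell receptor delta locus, had 0, 3 and 0 reads in the controls and 4, 6 and 6 with construct 7.

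Further genes had small, even differences on the higher side. Dhrs11, a short-chain dehydrogenase, stood at 22.01, 22.78 and 21.93 FPKM in the controls and 30.5, 28.3 and 34.2 FPKM with construct 7 (0.46, adjusted p = 0.159). Tmem30a, the helper subunit of lipid flippases, had 0.37 (adjusted p = 0.16), Akirin1 0.43 and Armcx3 0.36 (both adjusted p = 0.259). The transcriptional coactivator gene Ppargc1a read 4.65, 4.09 and 5.09 against 6.91, 6.57 and 6.96 FPKM (0.48, adjusted p = 0.259). The retinoblastoma gene Rb1 had 0.54 and the zinc-finger gene Zfand6 0.31 (both adjusted p = 0.259). These genes were picked from those in which the 3 construct 7 libraries lay above all controls (10.5% of all genes tested), so that separation is no result about them.

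On the lower side, Lox, the lysyl oxidase that cross-links collagen and elastin, stood at 3.23, 2.49 and 2.57 FPKM in the controls and at 1.48, 1.39 and 1.26 FPKM with construct 7 (-0.66, SE 0.097, adjusted p = 0.0912). With construct 5 it read 3.83, 3.07 and 3.29 FPKM, and construct 7 was lower than construct 5 by -0.88 (SE 0.097, adjusted p = 0.0119). Cthrc1, a secreted protein with collagen-like repeats, was at 2.81, 3.62 and 1.78 FPKM in the controls and 0.509, 1.28 and 0.737 FPKM with construct 7 (-1.01, adjusted p = 0.268). The secreted protease Htra1 had a log2 change of -0.58 (adjusted p = 0.248), read 10.5, 9.31 and 8.79 against 6.03, 6.90 and 5.28 FPKM, and was lower than with construct 5 as well (-0.64, adjusted p = 0.0391).

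Other lower genes belonged to no single list. Cbr2, a carbonyl reductase, read 14.5, 18.3 and 15.4 FPKM in the controls and 7.33, 9.25 and 10.4 FPKM with construct 7 (-0.78, adjusted p = 0.1195). The sphingosine 1-phosphate transporter Spns2 stood at 9.13, 7.81 and 8.86 against 6.27, 4.78 and 5.09 FPKM (-0.59, adjusted p = 0.16). Srebf1, which drives fatty acid synthesis genes, had -0.49, and the histone acetyltransferase Kat2b -0.53 (both adjusted p = 0.259). The calcium channel subunit Cacng7 had -0.48 (adjusted p = 0.213), Gpatch4 -0.37 (0.241) and the synaptobrevin Vamp1 -0.43 (0.259). The F-box gene Fbxo17 (-0.48) and Scand1 (-0.38) had the same adjusted p = 0.259. Odf3l2 had -1.05 (adjusted p = 0.365), on no more than 24 reads in any construct 7 library.

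The 26S proteasome degrades ubiquitinated proteins, and its 34 genes were tested as a list because UBR4 feeds it substrates. No member was called by limma (0 of 34, and 0 with voom), 9 were higher and 0 lower at an unadjusted p under 0.05 (5.84% and 3.63% of all genes), and 33 of 34 had values above 0. The 9 fell to 4 without control replicate 1 and to 5 without control replicate 3, without construct 7 replicate 2 or with the replicate number as a block; without construct 7 replicate 3 it was 6. The median was 0.14, against 0.02 over all genes. For construct 5 against control the list median was 0.18, against 0.13 over all genes. In 17 of the 34 the 3 construct 7 libraries lay above all controls, and in 0 below, where 10.5% and 6.26% of all genes did so. Psma1, an alpha-ring subunit, read 31.9, 29.8 and 32.1 FPKM in the controls and 40.8, 38.3 and 40.9 FPKM with construct 7 (0.35, adjusted p = 0.259). Psma2 had 0.27 (adjusted p = 0.278), the ATPase subunit Psmc6 0.29 (0.304) and Psma5 0.31 (0.365). The mean difference of the list from the control mean was 0.0854, 0.209 and 0.153 in the construct 7 libraries and -0.0443, 0.0626 and -0.0182 in the controls, so the groups were separate by little. With median-ratio scaling the median was 0.11, with 31 members above 0.

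Nuclear RNA-binding proteins of the hnRNP group package and splice new transcripts. All 28 tested members had values above 0, where 57.0% of all genes did. At an unadjusted p under 0.05, 7 were higher and 0 lower (5.84% and 3.63% of all genes), and none was called by limma or voom. The median was 0.15. For construct 5 against control the list median was 0.25, against 0.13 over all genes. Matr3, which encodes the nuclear matrix protein matrin 3 and is mutated in a distal myopathy, read 10.9, 11.2 and 11.9 FPKM in the controls and 15.1, 15.1 and 14.4 FPKM with construct 7 (0.36, adjusted p = 0.16). Hnrnpr (0.24, adjusted p = 0.308) and Hnrnpu (0.25, 0.334) also had groups that did not overlap. With median-ratio scaling and with quantile normalization 27 of 28 were above 0, and without construct 7 replicate 1 it was 22 of 28 with a median of 0.10; without control replicate 2 it was 21 with a median of 0.10.

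Fibroblast and matrix genes lay on the other side of 0. Of 31 tested members, 29 had values below 0. At an unadjusted p under 0.05, 10 were lower and 0 higher (3.63% and 5.84% of all genes), and in 14 every construct 7 library lay below all controls, as in 6.26% of all genes. No member was called by limma (0 of 31) or by voom. The median was -0.32. Col1a1, a chain of type I collagen, stood at 75.2, 67.9 and 64.7 FPKM in the controls and at 38.9, 60.3 and 40.3 FPKM with construct 7 (-0.59, adjusted p = 0.364). Col1a2, its partner chain, had -0.53 (adjusted p = 0.311) and the matricellular Thbs2 -0.39 (adjusted p = 0.324). The summed level of the 31 genes was 970.7 to 1150 FPKM in the controls and 793.0 to 895.2 FPKM with construct 7.

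The size of that shift rested on single libraries. The mean difference of the list from the control mean was -0.524, -0.106 and -0.262 in construct 7 replicates 1, 2 and 3, and -0.0669, 0.164 and -0.0973 in the controls. Without construct 7 replicate 1 the median was -0.17, 8 members were above 0 and 4 were lower at an unadjusted p under 0.05; without control replicate 2 the median was -0.23, with 8 above 0 and 4 lower. Without construct 7 replicate 2 the number lower was 17. The general fibroblast marker Pdgfra stood at 2.92 ± 0.146 FPKM in the controls and 2.60 ± 0.219 FPKM with construct 7 (SD, n = 3). Its groups were separate by a narrow margin, with the lowest control at 2.765 FPKM and the highest construct 7 library at 2.76 FPKM. Decorin (Dcn) overlapped, with 116.9 to 131.3 FPKM in the controls and 98.5 to 127.9 FPKM with construct 7. Whether the muscle held fewer fibroblasts or its fibroblasts held less collagen RNA was not tested.

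**Figure D4:**
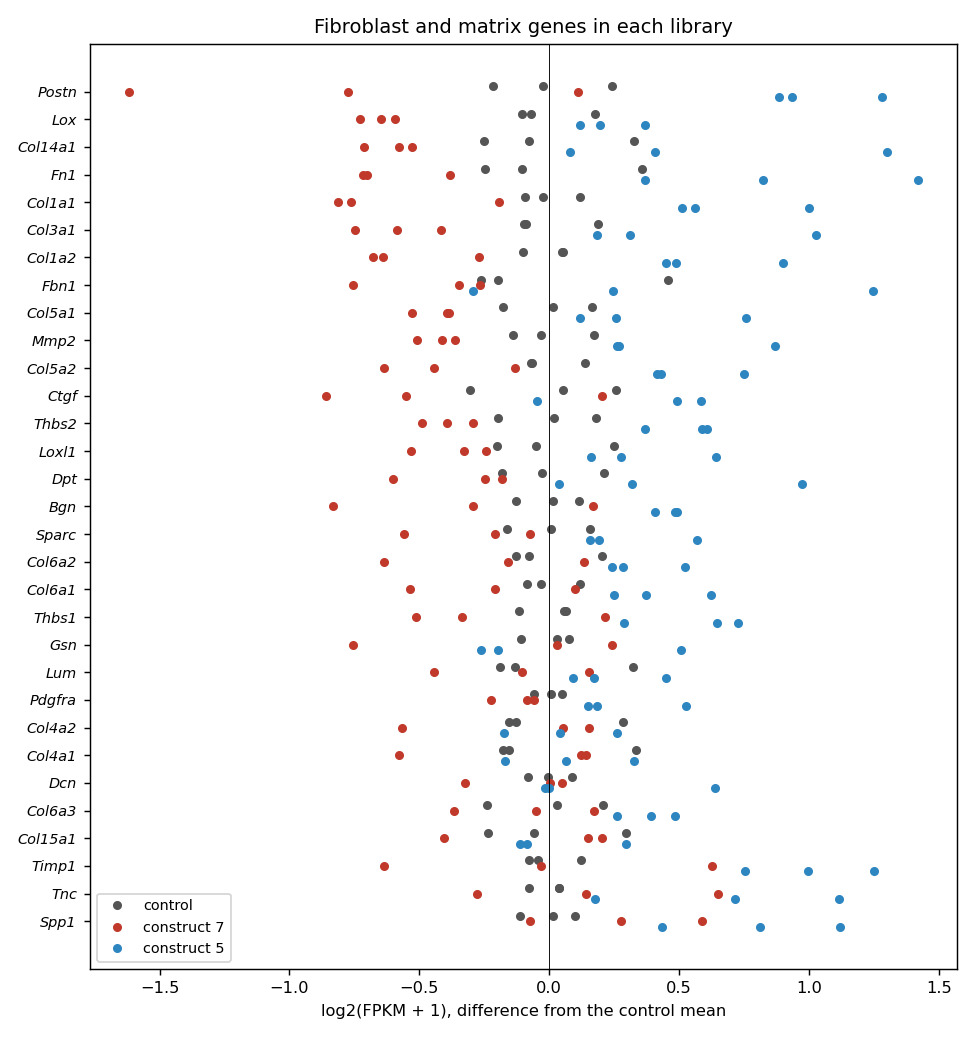
Difference of each control (grey), construct 7 (red) and construct 5 (blue) library from the control mean on the log2(FPKM + 1) scale, for the 31 fibroblast and matrix genes. Most red points lie left of 0 and most blue points right of 0, with 1 construct 7 library often far left of the other two.

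Markers of other cell types showed no call, and their values stand beside the matrix genes. Of 18 tested macrophage markers (21 listed), 16 were below 0 with a median of -0.13, 1 was lower at an unadjusted p under 0.05, and their sum was 171.9 to 271.8 FPKM in the controls and 149.1 to 218.6 FPKM with construct 7. Without construct 7 replicate 1 the macrophage median was 0.04, with 12 of 18 above 0, and without control replicate 2 it was -0.03, so the list has no direction that holds across libraries. Cd14, a receptor for bacterial lipopolysaccharide, was that 1 gene (-0.35, adjusted p = 0.421). The 15 endothelial markers summed to 145.1 to 175.4 and 141.9 to 160.0 FPKM, with a median of -0.07. For 10 tested markers of tendon and cartilage the median was -0.20, with sums of 59.9 to 83.6 and 43.0 to 119.1 FPKM. The neutrophil genes Ly6g and Elane and the antibody chain gene Ighg1 were listed at 0 in all 6 libraries, and the T-cell gene Cd3e did not exceed 0.217 FPKM. Other members of the same lists were detected. The antibody chain gene Ighm ranged from 17.5 to 27.6 FPKM in the controls and from 14.8 to 22.5 FPKM with construct 7. The neutrophil gene S100a8 reached 1.58 FPKM in the controls and 0.664 FPKM with construct 7. The 12 T and natural killer cell markers summed to 2.31 to 2.54 FPKM in the controls and 1.48 to 8.05 FPKM with construct 7, a wider range. The 4 tested globin genes, near-identical copies in pairs, had log2 values from 0.28 to 0.32 and none passed at an unadjusted p under 0.05. The part of these cell types in the called genes was not tested.

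**Figure D5:**
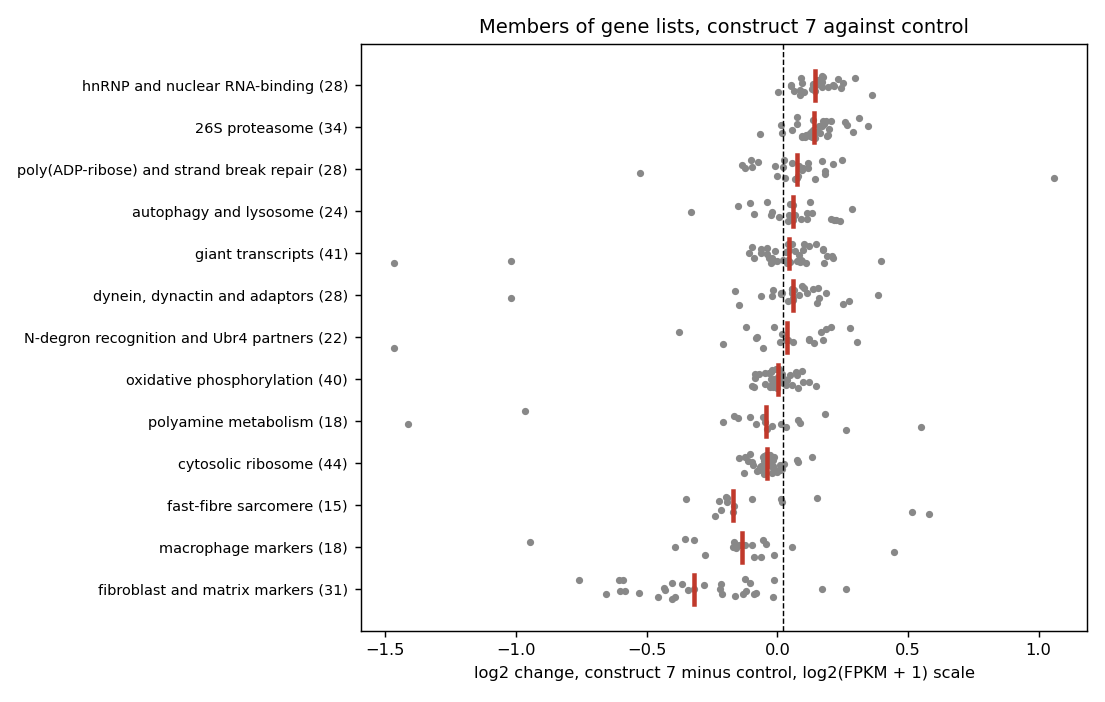
Log2 change with construct 7 against control of each tested member (grey points, spread vertically for legibility) of 13 gene lists, with the list median (red bar); the dashed line is the median of all 10794 genes. Medians run from -0.32 for fibroblast and matrix genes to 0.15 for the hnRNP group, and single far members (Ubr4, Smox, Dync1h1, Parp1) stand apart from their lists.

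The contractile and metabolic genes of the fibre had no called member by limma. Of 15 genes of the fast sarcomere, 10 were below 0 with a median of -0.17, and in 5 (Acta1, Tnni2, Tnnc2, Tnnt3 and Tpm1) every construct 7 library lay below all controls, as in 6.26% of all genes. Without construct 7 replicate 3 the median was -0.0002 with 7 above 0, and with quantile normalization it was -0.06. Skeletal actin Acta1 read 20568, 19940 and 19902 FPKM in the controls and 13882, 18793 and 15141 FPKM with construct 7 (-0.35, adjusted p = 0.406), and fast troponin I (Tnni2) had -0.24 (adjusted p = 0.454). Myosin Myh2 of type 2A fibres stood at 96.9, 97.1 and 64.3 FPKM in the controls and 124, 111 and 148 FPKM with construct 7. Its groups did not overlap, but 0 genes of the fast sarcomere list, Myh2 included, were higher at an unadjusted p under 0.05. Myh4 of type 2B fibres overlapped at 5587 ± 830 and 6306 ± 1642 FPKM (SD, n = 3). The 12 slow-fibre genes had a median of 0.11 with 0 at an unadjusted p under 0.05, and without control replicate 3 the median was -0.04.

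Genes of energy metabolism had no call. The 40 oxidative phosphorylation genes had a median of 0.00 and none at an unadjusted p under 0.05, and the 24 glycolysis and glycogen genes a median of -0.02. Of 23 fatty acid genes, 20 were above 0 with a median of 0.15 and 0 at an unadjusted p under 0.05. The 44 cytosolic ribosome genes had a median of -0.04, with 7 above 0. With 0 calls each, no direction is given to these lists.

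Muscle breakdown genes were mixed. Of 24 genes listed for the atrophy program, 3 were higher and 0 lower at an unadjusted p under 0.05 (5.84% and 3.63% of all genes). The 3 were the ligase genes Fbxo30 and Trim63 and the cell cycle inhibitor Cdkn1a, given above. The median was 0.05, and -0.03 without control replicate 1. Fbxo30, an F-box ligase of denervated muscle, read 2.49, 2.52 and 2.91 FPKM in the controls and 3.21, 3.84 and 4.57 FPKM with construct 7 (0.41, adjusted p = 0.286). Trim63 (MuRF1), which ubiquitinates sarcomere proteins, stood at 59.3, 54.6 and 60.3 against 75.03, 69.56 and 67.09 FPKM (0.28, adjusted p = 0.365). Fbxo32 (atrogin-1) overlapped, at 42.7 ± 11.9 and 47.2 ± 19.7 FPKM (SD, n = 3). The autophagy receptor Sqstm1 read 121 to 145 FPKM in the controls and 140 to 158 FPKM with construct 7.

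Among antioxidant and aryl hydrocarbon genes 4 of 20 were higher at an unadjusted p under 0.05 and 0 lower, against 5.84% and 3.63% of all genes (median 0.10). Beside Aldh3a1 these were glutathione reductase Gsr (0.45, adjusted p = 0.278), Nfe2l2 (0.29, 0.278), which encodes the transcription factor NRF2, and Pgd (0.37, 0.488). Gsr read 5.41, 5.64 and 5.46 FPKM in the controls and 7.56, 7.65 and 8.51 FPKM with construct 7. The classical NRF2 target Nqo1 stood at 6.92 ± 0.592 FPKM in the controls and 7.46 ± 0.350 FPKM with construct 7 (SD, n = 3). With construct 5 it read 16.7 ± 4.64 FPKM (SD, n = 3). The heat shock protein Hsp90aa1 stood at 10.8, 11.2 and 10.1 FPKM in the controls and 15.2, 16.8 and 19.4 FPKM with construct 7 (0.63, adjusted p = 0.393). For 22 genes of the interferon response the median was 0.04 (-0.11 without construct 7 replicate 2), and 0 passed at an unadjusted p under 0.05.

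In the direct comparison of the constructs, in which the controls enter through the shared spread and the filter, limma called 132 of 10794 genes (1.22%), 16 higher with construct 7 (0.148%) and 116 lower (1.07%). The split depends on the scaling: over all genes the median difference was -0.10, and with median-ratio scaling, which moves that median to 0.00, 79 genes were called, 38 higher and 41 lower. Groups of 3 did not overlap in 25.4% of genes, 3.02% higher with construct 7 and 22.4% lower. The count of calls ran from 3 without construct 7 replicate 1 and 4 without construct 7 replicate 3 to 387 without construct 7 replicate 2. Without control replicate 1, 2 or 3 it was 55, 53 or 52, and with the 6 libraries alone 23. The calls without construct 7 replicate 1 were Csrp2, Dync1h1 and Ube2e1, and without replicate 3 these and Arhgap10, so no other difference named below held without either library. Differences named below are on the deposited scaling, with the median-ratio result where it ends the call.

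Genes of the matrix were among those lower with construct 7. Of the 31 fibroblast and matrix genes 10 were lower with construct 7 than with construct 5, where 1.07% of all genes were. With median-ratio scaling 5 of the 10 were lower, where 0.38% of all genes were. Col1a1 read 103, 139 and 98.9 FPKM with construct 5 and 38.9, 60.3 and 40.3 FPKM with construct 7 (-1.28, adjusted p = 0.0201). The controls lay between them, at 64.7 to 75.2 FPKM. Cthrc1 differed by -1.63 (adjusted p = 0.0195) and the cartilage protein gene Comp by -1.38 (adjusted p = 0.0195). Periostin (Postn, -1.79, adjusted p = 0.0488) and fibronectin (Fn1, -1.47, adjusted p = 0.0345) were not called with median-ratio scaling (adjusted p = 0.0745 and 0.0582).

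Macrophage markers were lower too, 4 of 18, of which 1 was also called with median-ratio scaling (1.07% and 0.38% of all genes). Lysozyme Lyz2, that 1 gene, read 165, 228 and 127 FPKM with construct 5, 84.6, 112 and 76.1 FPKM in the controls and 61.5, 75.4 and 68.1 FPKM with construct 7 (construct 7 minus construct 5 -1.29, adjusted p = 0.0325). Retnla, a gene of alternatively activated macrophages, had the largest difference of the genes named, -2.37 (adjusted p = 0.0475). It read 51.70, 93.11 and 49.98 FPKM with construct 5 and 17.7, 7.35 and 10.8 FPKM with construct 7. The chemokine Ccl6 differed by -1.33 (adjusted p = 0.0488) and the secretory pathway gene Fkbp11 by -1.30 (adjusted p = 0.0463). Retnla, Ccl6 and Fkbp11 were not called with median-ratio scaling. The part of macrophage and fibroblast RNA in the differences between the constructs was not tested.

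Higher with construct 7 than with construct 5 were genes of no common list, and several of them lay at the control level with construct 7. Ube2e1, a ubiquitin-conjugating enzyme, read 13.5, 13.4 and 13.1 FPKM in the controls, 14.0, 14.9 and 14.4 FPKM with construct 7 and 8.03, 8.08 and 7.83 FPKM with construct 5. The difference was 0.78 (SE 0.057, adjusted p = 0.00178), called in 20 of 20 alternatives. Sec23a, a coat subunit of transport vesicles, stood at 27.3, 23.0 and 23.0 FPKM with construct 7 and at 13.7 ± 1.20 FPKM (SD, n = 3) with construct 5 (0.79, adjusted p = 0.0195). The controls lay between, at 17.2 to 21.3 FPKM. Trappc1 (0.65), Tulp4 (0.55), the kinesin heavy chain Kif5b (0.55) and Wbp2 (0.53) were called with adjusted p-values of 0.0199, 0.0336, 0.0336 and 0.0195. Pldn (0.45), Hdhd2 (0.44), Prdm4 (0.42) and Fam122a (0.42) had adjusted p-values of 0.0409, 0.0493, 0.0318 and 0.046. All 10 of these genes were called with median-ratio scaling as well. For Ubr4 itself the difference did not pass the test (-0.27, SE 0.129, adjusted p = 0.246), with 3.61, 3.80 and 2.73 FPKM under construct 5.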

How the data were processed

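RNA from tibialis anterior muscle, extracted with trizol per the labels' protocols, was sequenced in 9 libraries, 3 a group. The authors deposited 1 table of FPKM for 23231 genes. BWA, STAR and HTSeq and the build mm9 are named in the submitters' processing notes, with no versions or roles; strandedness is not given in the sources used here, so overlapping genes are uncertain. Titles gave the groups and replicate numbers.

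log2(FPKM + 1) of the 10794 genes with a mean of at least 1 FPKM was fitted over all 9 libraries with limma 3.58.1 (R 4.3.3; eBayes with trend), and genes with a p-value under 0.05 after Benjamini-Hochberg adjustment over that contrast were called. The fit was checked on simulated data with known changes. Depth was recovered from the steps of low FPKM values with gene lengths of 21323 genes from another build (GRCm38, used for lengths only, so positions are not given); 66.4 to 74.1% of values under 50 reads were whole within 0.1 reads. Sequences of the siRNAs were not used here.

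Named were Ubr4, every called gene, the 12 genes on each side with the smallest p among those not called whose groups did not overlap, the 8 on each side with the largest values, members of the N-degron, polyamine, dynein, poly(ADP-ribose) and Anp32 lists, up to 4 members of other lists, and the first 10 called on each side between the constructs. Ttn, Neb, Ryr1, Krt8, Amd2 and a few other genes given as levels were chosen after their values were seen. Some genes and 1 gene list are not reported here. The members and lists were chosen with earlier results of these data known. Alternatives were other pseudocounts (0.1, 0.5), filters (none, 5 FPKM), scalings (median-ratio, quantile), the 6 libraries alone, a replicate block, robust spread, library weights, voom on recovered reads and leaving out each library. Chosen after seeing the data were median-ratio scaling without construct 7 replicate 1 and the list medians under each alternative. Figures used matplotlib 3.10.9 in Python 3.11.15.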

Additional observations from a re-analysis of the deposited data

Results flagged for a closer look

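Genes named for construct 7 against control that also differed between the 2 constructs, by limma's test of construct 7 minus construct 5 (n = 3 each, adjusted over all genes), are listed with that log2 difference. Of the called genes these were Dync1h1 (-1.36), Arhgap10 (-0.75) and Parp1 (-0.58). Of the genes not called against control they were Cthrc1 (-1.63), Lox (-0.88), Fbxo17 (-0.85), Cbr2 (-0.76), Htra1 (-0.64), Kat2b (-0.62), Col1a1 (-1.28), Col1a2 (-1.14), Thbs2 (-0.91), Cd14 (-0.67) and Nqo1 (-1.03). Comp (-1.38) and Kif5b (0.55), members of lists tested against control, differed between the constructs too. With median-ratio scaling Arhgap10, Cbr2, Htra1, Kat2b and Cd14 were not called (adjusted p = 0.0605, 0.0665, 0.062, 0.0722 and 0.0697), and the others were. In Fbxo17 the construct 7 libraries read 0.7795, 1.10 and 0.734 FPKM, the controls 1.67, 1.49 and 1.67 FPKM and the construct 5 libraries 2.78, 2.17 and 2.18 FPKM, so construct 5 lay above the controls and construct 7 below them. In Kat2b (10.9, 8.31 and 10.4 FPKM with construct 7, 16.1, 14.8 and 15.9 FPKM with construct 5) the construct 5 libraries lay within the control range of 12.9 to 16.2 FPKM.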

How the results depend on the processing

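With construct 7 against control, 6 genes were called; the count was 0 with no filter on low values and 2 with the 6 libraries alone, and leaving out single libraries gave 0 to 5. Over the 97 named genes and 2008 alternatives, 1935 kept their side of the threshold, 59 lost it, 14 gained it and 0 changed sign. Only the 6 called genes could lose a call, so all 59 losses fell on them. They kept it in 17 of 21 alternatives (Ubr4) down to 7 of 21 (Anp32e). The 1935 were mostly uncalled genes that stayed uncalled. Many named genes were picked for separate groups or a small p, so the absence of sign changes says little. Ubr4 with construct 7 against control had a log2 change of -1.47 with no filter (adjusted p = 0.0976) and -1.78 to -1.38 over all its alternatives; leaving out single libraries gave -1.56 to -1.38 and lost the call 3 times. Between the constructs 132 genes were called; the count was 10 with no filter, 48 at 5 FPKM, 79 with median-ratio scaling, 58 with quantile normalization, 23 with the 6 libraries alone, 201 with library weights, and 3 to 387 without single libraries. Same-numbered control and construct 7 libraries deviated from their group means with correlations of 0.03, 0.31 and -0.36, and no control correlated best with its own number. Control replicate 2 was close to a tie, at 0.313 with its own number and 0.316 with construct 7 replicate 3. Deviations within a group sum to 0, so these correlations cannot decide whether the replicate numbers pair samples. With the replicate block 7 genes were called against control, 4 of them among the 6 (Dync1h1 and Parp1 were lost), and 217 between constructs, 115 of them among the 132. The causes were not tested. Genes near 1 FPKM, such as Aldh3a1 in the controls, rest on few reads.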
